A study of Homo sapiens with 9 samples.

Results

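The genes described here encode proglucagon, peptide YY, the granins and the enzymes that cut prohormones into active peptides: GCG, PYY, CHGA, CHGB, SCG2, SCG3, SCG5, PCSK1, PCSK2 and CPE. Every probe bearing 1 of these names was taken, which gave 12 probes of 10 genes, among 47230 probes with 31333 distinct names on an Illumina bead array. The cells were NCI-H716, a human colorectal cancer line with endocrine features that is widely used as a source of glucagon-like peptide 1. The 9 arrays held 3 groups of 3: untreated cells of the line (treatment none), cells given a control vector, and cells given a vector for mutant YAP. YAP1 is a transcriptional coactivator of the Hippo pathway that works through TEAD factors. The labels do not name the YAP mutation, the promoter of either vector, the time of harvest or the age of the cultures. No label gives separate cultures for the 3 arrays of a group, and the p-values therefore reflect array-to-array spread alone, some or all of it possibly technical.

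Enteroendocrine cells store peptide hormones in dense-core granules. Granins are acidic proteins that aggregate with the hormones as the granules form, and prohormone convertases then cut the precursors at basic residues. A carboxypeptidase trims the basic residues left at the cut ends. In intestinal L cells PCSK1 releases glucagon-like peptides 1 and 2 from proglucagon, whereas in pancreatic alpha cells PCSK2 releases glucagon.

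Of the 12 probes, 10 lay above the background floor on all 9 arrays and were tested, and the probes of PYY and PCSK2 lay above it on 0 of 9 arrays. Between the arrays labelled YAP mutant vector and the control vector arrays, 0 of the 10 tested probes passed an adjusted p under 0.05. Against untreated cells, SCG2 and both probes of PCSK1 fell on the arrays labelled YAP mutant vector, while both probes of SCG3 and the probe of SCG5 rose. Those groups differ both in the giving of a vector and in the mutant YAP label, which this comparison cannot tell apart. SCG2 and 1 of the 2 PCSK1 probes were also lower with the control vector than in untreated cells. GCG itself passed the test in none of the 3 comparisons.

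The arrays had median raw intensities of 104.15 to 128.76. The lowest 2 were control vector replicate 3 and YAP mutant vector replicate 1, and the share of probes above the floor ran from 38.9% to 41.2%. The single YAP1 probe read 8.29, 8.17 and 8.01 on the untreated arrays in log2 signal. It read 7.85, 7.79 and 7.94 on the control vector arrays and 8.06, 7.82 and 7.91 on the YAP arrays. The groups given a vector overlapped in YAP1 signal, and YAP1 did not pass the test between them (log2 difference of the arrays labelled YAP mutant vector from the control vector 0.07 ± 0.11 SE, adjusted p = 0.965). Whether the probe covers the part of YAP1 carried by the vector is not given in the sources used here, so the probe does not check the label, and every direction below rests on the label alone. These are called the YAP-labelled arrays from here on. Of 7 other enteroendocrine genes, INSM1, RFX6, SYP, SNAP25 and SCGN lay above the floor on all 9 arrays, NKX2-2 on 6 and NEUROD1 on 4. Of 7 genes of colorectal epithelium, EPCAM, KRT8, KRT18 and CDX2 lay above it on 9 arrays, and KRT20, CDH1 and VIL1 on 0. In these bulk samples, fewer cells of a type and less RNA per cell cannot be told apart.

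Proglucagon, the precursor of glucagon and of glucagon-like peptides 1 and 2, gave a strong signal on every array. The GCG probe (ILMN_1724396) had raw intensities of 17304 to 23205, where the brightest probe of each array had 29539 to 35987. In log2 signal after background correction and quantile normalization, GCG read 14.41, 14.02 and 14.20 on the untreated arrays, 14.20, 14.36 and 14.48 on the control vector arrays, and 14.37, 14.35 and 14.31 on the YAP-labelled arrays. The 3 groups overlapped, and the lowest and the highest untreated array spanned most of the range. The YAP-labelled arrays differed from the control vector arrays by -0.0044 ± 0.1125 (SE, n = 3 arrays a group; 95% interval -0.24 to 0.23, limma adjusted p = 0.997). GCG differed by 0.13 ± 0.11 between the YAP-labelled arrays and untreated cells (interval -0.10 to 0.36, adjusted p = 0.605). In GCG signal, control vector and untreated arrays differed by 0.13 (interval -0.10 to 0.37, adjusted p = 0.674).

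The region around the GCG start site is shown because GCG is the hormone gene that defines the set. Promoter sequences here are 250 bases before to 50 bases after the annotated start, from RefSeq, printed 5′ to 3′ on the strand of the gene. RefSeq gave 11 such promoters for 8 of the 10 genes, and CHGB and SCG2 are named only. They were searched on both strands for TGACGTNA, the cyclic AMP response element with 1 free base, for CATTCC, the core bound by TEAD factors, for TGANTCA, the AP-1 site, and for TATAAA, the TATA box. No match of 1 motif overlapped a match of another in the promoters printed, and a match is a description of letters and not a binding site. Capitals mark the matches.
GCG, GRCh38.p14, chr2:162152198-162152497, minus strand: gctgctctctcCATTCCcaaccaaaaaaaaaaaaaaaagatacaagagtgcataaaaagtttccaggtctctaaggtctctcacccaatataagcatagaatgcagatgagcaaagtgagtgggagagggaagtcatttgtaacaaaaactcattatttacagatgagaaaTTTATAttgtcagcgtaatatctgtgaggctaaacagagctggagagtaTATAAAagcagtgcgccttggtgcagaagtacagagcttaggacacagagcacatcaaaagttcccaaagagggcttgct
CATTCC began at position -239 from the GCG start and was in 14.0% of the 35116 promoters searched. TATAAA began at position -30 and, on the opposite strand, at position -79, and was in 11.5% of promoters.

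Peptide YY, which L cells release together with glucagon-like peptide 1, was not measurable here. The PYY probe (ILMN_1703075) read 6.47, 6.21 and 6.03 on the untreated arrays, 6.13, 6.20 and 6.24 on the control vector arrays, and 5.89, 6.18 and 6.03 on the YAP-labelled arrays. Its raw intensities of 86.7 to 133 lay under the floor of the same array on every array, so no difference is given. The first of the 2 PYY promoters held TGAGTCA at position -56, which matches the AP-1 motif found in 7.71% of promoters.

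**Figure D1:**
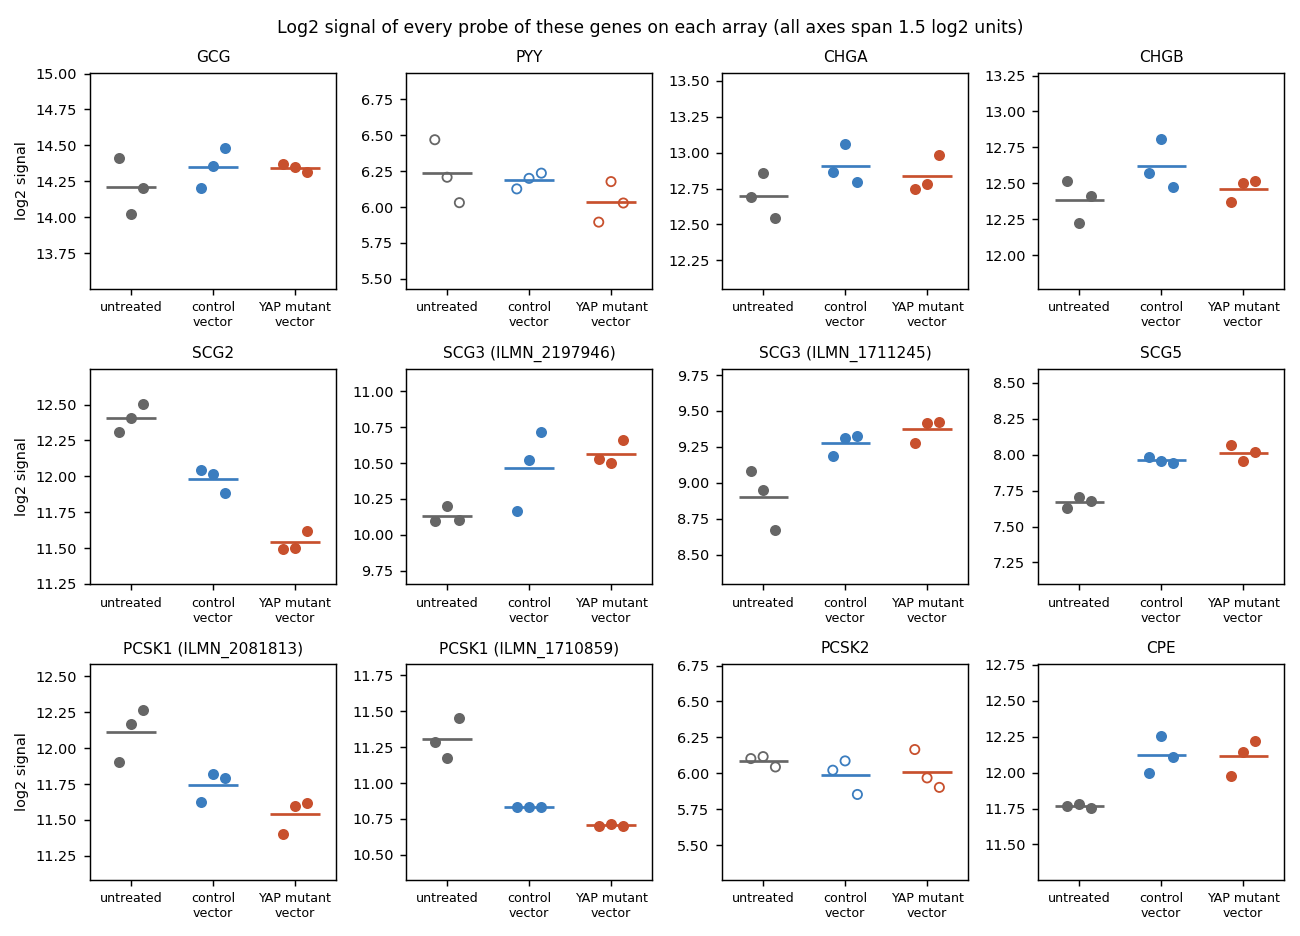
Log2 signal of each of the 12 probes on the 9 arrays, with 1 panel a probe, all panels spanning 1.5 log2 units, points for arrays and bars for group means. Open points are arrays on which the probe lay under the background floor (PYY and PCSK2). SCG2 and both PCSK1 probes step down from untreated cells to the control vector and again to the arrays labelled YAP mutant vector. Their groups do not overlap, although none of these probes passed the test between the vector groups.

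Among the granins, SCG2 fell and SCG3 and SCG5 rose on the YAP-labelled arrays against untreated cells. CHGA and CHGB passed the test in no comparison. No granin probe passed between the YAP-labelled and control vector arrays. Chromogranin A, a granule protein used as a general endocrine marker, was measured by 1 probe (ILMN_1669410). CHGA read 12.69, 12.86 and 12.55 on the untreated arrays, 12.87, 13.06 and 12.80 on the control vector arrays, and 12.75, 12.78 and 12.99 on the YAP-labelled arrays. Chromogranin B, its companion in the granule core (ILMN_1765966), read 12.52, 12.22 and 12.41 on the untreated arrays, 12.57, 12.81 and 12.48 on the control vector arrays, and 12.37, 12.50 and 12.51 on the YAP-labelled arrays. For both genes the groups overlapped in each comparison. YAP-labelled minus control vector was -0.07 ± 0.11 (interval -0.30 to 0.16, adjusted p = 0.968) for CHGA and -0.16 ± 0.11 (interval -0.39 to 0.08, adjusted p = 0.908) for CHGB. Against untreated cells CHGA differed by 0.14 ± 0.11 (adjusted p = 0.571) and CHGB by 0.08 ± 0.11 (adjusted p = 0.785) on the YAP-labelled arrays. Control vector minus untreated was 0.21 ± 0.11 for CHGA (adjusted p = 0.448) and 0.23 ± 0.11 for CHGB (adjusted p = 0.377).

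Secretogranin II, the precursor of the neuropeptide secretoneurin, showed the largest difference among these genes between untreated cells and the YAP-labelled arrays. The SCG2 probe (ILMN_1703178) read 12.31, 12.41 and 12.50 on the untreated arrays, 12.04, 12.02 and 11.88 on the control vector arrays, and 11.49, 11.50 and 11.62 on the YAP-labelled arrays. Every control vector array lay below every untreated array, and every YAP-labelled array below every control vector array. SCG2 fell by 0.87 ± 0.10 on the log2 scale between untreated cells and the YAP-labelled arrays (interval -1.08 to -0.66, adjusted p = 7.33e-06), which is 1.82-fold lower. That was the 11th lowest difference of 20218 probes. The control vector was lower than untreated cells by 1.34-fold (log2 difference -0.43 ± 0.10, interval -0.64 to -0.21, adjusted p = 0.0297).

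The SCG2 difference between the YAP-labelled and control vector arrays was -0.44 ± 0.10 (interval -0.65 to -0.23), or 1.36-fold lower. It missed the threshold over all probes (unadjusted p = 0.000255, adjusted p = 0.0725), although it was the 12th lowest of 20218 differences. Its call depends on the processing: the adjusted p was 0.0211 without background correction and 0.0232 with a variance trend and robust estimates, and ran from 0.0211 to 0.9997 over the 20 alternatives. The fall against untreated cells passed the test in all 20 alternatives, with adjusted p of at most 0.000923. The call for the control vector against untreated cells was lost in 7 alternatives. These included leaving out untreated replicate 2 (adjusted p = 0.0944), untreated replicate 3 (0.149), control vector replicate 2 (0.0628) or control vector replicate 3 (0.167).

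Secretogranin III, which binds chromogranin A and anchors granule contents to the membrane, was measured by 2 probes. ILMN_2197946 read 10.09, 10.20 and 10.10 on the untreated arrays, 10.16, 10.52 and 10.72 on the control vector arrays, and 10.53, 10.50 and 10.66 on the YAP-labelled arrays. ILMN_1711245 read 9.08, 8.95 and 8.67 on the untreated arrays, 9.19, 9.31 and 9.33 on the control vector arrays, and 9.28, 9.42 and 9.42 on the YAP-labelled arrays. At both probes every YAP-labelled array lay above every untreated array. SCG3 rose by 0.43 ± 0.12 at ILMN_2197946 (interval 0.18 to 0.68, 1.35-fold, adjusted p = 0.0394) and by 0.47 ± 0.11 at ILMN_1711245 (interval 0.24 to 0.70, 1.39-fold, adjusted p = 0.0143) on the YAP-labelled arrays against untreated cells. For the control vector against untreated cells the SCG3 differences were 0.33 (adjusted p = 0.188) and 0.37 (adjusted p = 0.0947). With 1 array left out, ILMN_2197946 ranged from 0.21 to 0.49 in that comparison, and it passed without control vector replicate 1 (0.49, adjusted p = 0.0346). Between the YAP-labelled and control vector arrays they were 0.0956 ± 0.1198 (interval -0.15 to 0.34, adjusted p = 0.955) and 0.0961 ± 0.1119 (interval -0.14 to 0.33, adjusted p = 0.951).

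With 1 array left out, the SCG3 difference between the YAP-labelled and untreated arrays stayed at 0.38 to 0.46 at ILMN_2197946 and at 0.35 to 0.56 at ILMN_1711245, while some calls were lost. At ILMN_2197946 the call was lost on leaving out any 1 untreated or YAP-labelled array, with adjusted p from 0.0604 to 0.142. At ILMN_1711245 it was lost without untreated replicate 3 (0.112), YAP mutant vector replicate 2 (0.0509) or YAP mutant vector replicate 3 (0.0614).

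SCG5, or 7B2, is a granule protein that chaperones PCSK2. Its probe (ILMN_2065773) read 7.63, 7.70 and 7.68 on the untreated arrays, 7.98, 7.96 and 7.94 on the control vector arrays, and 8.07, 7.96 and 8.02 on the YAP-labelled arrays. The untreated arrays lay below all 6 vector arrays, and the groups given a vector overlapped. SCG5 rose by 0.34 ± 0.10 against untreated cells on the YAP-labelled arrays (interval 0.14 to 0.55, 1.27-fold, adjusted p = 0.0426). For control vector minus untreated the difference was 0.29 ± 0.10 (adjusted p = 0.147), and for YAP-labelled minus control vector 0.05 ± 0.10 (interval -0.15 to 0.25, adjusted p = 0.974). The SCG5 call was lost in 14 of the 20 alternatives, in which the adjusted p reached 0.467. The difference itself stayed at 0.32 to 0.37 with any 1 array left out and at 0.26 to 0.40 over all 20 alternatives. Without untreated replicate 1, 2 or 3 the adjusted p was 0.105, 0.0900 or 0.105. It was 0.0508 or 0.0517 without control vector replicate 1 or 2. Without YAP mutant vector replicate 1, 2 or 3 it was 0.139, 0.0599 or 0.106.

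The promoters of the 2 granin genes that rose on the YAP-labelled arrays against untreated cells are shown side by side, with capitals as above.
SCG3, GRCh38.p14, chr15:51681253-51681552, plus strand: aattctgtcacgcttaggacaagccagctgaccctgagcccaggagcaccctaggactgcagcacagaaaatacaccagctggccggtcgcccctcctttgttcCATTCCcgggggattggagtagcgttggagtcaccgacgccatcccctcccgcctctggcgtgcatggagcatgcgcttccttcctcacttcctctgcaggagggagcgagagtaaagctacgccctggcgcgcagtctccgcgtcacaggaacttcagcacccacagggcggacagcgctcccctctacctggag
SCG5, GRCh38.p14, chr15:32641460-32641759, plus strand: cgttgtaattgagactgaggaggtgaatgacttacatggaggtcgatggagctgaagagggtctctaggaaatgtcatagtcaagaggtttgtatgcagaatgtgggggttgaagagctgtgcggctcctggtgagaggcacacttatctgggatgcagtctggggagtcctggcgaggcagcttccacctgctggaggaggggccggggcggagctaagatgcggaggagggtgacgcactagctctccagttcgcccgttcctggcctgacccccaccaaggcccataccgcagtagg
The SCG3 promoter held CATTCC at position -146, and the SCG5 promoter held none of the 4 motifs. The CHGA promoter held TGACGTCA at position -54, a match to TGACGTNA, which was in 3.01% of all promoters and in 3 of the 11 searched here.

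PCSK1, the convertase that releases glucagon-like peptides 1 and 2, fell at both of its probes on the YAP-labelled arrays against untreated cells. ILMN_2081813 read 11.90, 12.16 and 12.27 on the untreated arrays, 11.63, 11.82 and 11.79 on the control vector arrays, and 11.40, 11.60 and 11.62 on the YAP-labelled arrays. ILMN_1710859 read 11.29, 11.18 and 11.45 on the untreated arrays, 10.83, 10.83 and 10.83 on the control vector arrays, and 10.70, 10.71 and 10.70 on the YAP-labelled arrays. At both probes the order was untreated above control vector above YAP-labelled, with no overlap between groups. Against untreated cells PCSK1 on the YAP-labelled arrays fell by 0.57 ± 0.11 at ILMN_2081813 (interval -0.80 to -0.34, 1.49-fold lower, adjusted p = 0.00294). It fell by 0.60 ± 0.10 at ILMN_1710859 (interval -0.81 to -0.39, 1.52-fold lower, adjusted p = 0.000638). These calls were kept in every alternative run for them, with adjusted p of at most 0.0301 and 0.0089.

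With the control vector, PCSK1 was lower than in untreated cells by 1.39-fold at ILMN_1710859 (log2 difference -0.48 ± 0.10, adjusted p = 0.0127). At ILMN_2081813 the difference of -0.36 ± 0.11 did not pass (adjusted p = 0.109). The call at ILMN_1710859 was lost without untreated replicate 3 (adjusted p = 0.0967) or control vector replicate 3 (0.0523). Neither probe passed between the YAP-labelled and control vector arrays, with -0.21 ± 0.11 (interval -0.44 to 0.03, adjusted p = 0.829) and -0.13 ± 0.10 (interval -0.34 to 0.08, adjusted p = 0.923).

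RefSeq lists 2 start regions for PCSK1, both printed because the files do not say which one the probes report. Capitals mark the matches.
PCSK1, upstream start, GRCh38.p14, chr5:96433199-96433498, minus strand: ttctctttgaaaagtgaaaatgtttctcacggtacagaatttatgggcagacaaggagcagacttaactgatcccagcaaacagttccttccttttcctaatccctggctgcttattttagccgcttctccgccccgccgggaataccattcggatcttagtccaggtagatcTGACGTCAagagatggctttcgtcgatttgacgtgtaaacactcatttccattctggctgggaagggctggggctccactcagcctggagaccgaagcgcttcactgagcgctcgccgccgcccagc
PCSK1, downstream start, GRCh38.p14, chr5:96432111-96432410, minus strand: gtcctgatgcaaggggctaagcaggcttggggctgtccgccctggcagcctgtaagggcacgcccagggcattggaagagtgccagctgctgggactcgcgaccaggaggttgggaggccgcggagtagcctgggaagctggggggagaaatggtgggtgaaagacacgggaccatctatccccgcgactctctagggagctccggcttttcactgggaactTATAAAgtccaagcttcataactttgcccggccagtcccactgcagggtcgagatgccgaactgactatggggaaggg
The upstream promoter held TGACGTCA at position -77, and the downstream promoter held TATAAA at position -28. One of the 2 PCSK2 promoters also held a match to TGACGTNA, at position -99. The CPE promoter held none of the 4 motifs.

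PCSK2, the convertase that releases glucagon in alpha cells, was under the floor on all 9 arrays. Its probe (ILMN_1695003) read 6.10, 6.12 and 6.04 on the untreated arrays, 6.02, 6.09 and 5.85 on the control vector arrays, and 6.17, 5.97 and 5.90 on the YAP-labelled arrays. No difference is given for PCSK2, which was not detectable on these arrays.

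Carboxypeptidase E trims basic residues after the convertases have cut. The CPE probe (ILMN_1731374) read 11.77, 11.78 and 11.76 on the untreated arrays, 12.00, 12.25 and 12.11 on the control vector arrays, and 11.98, 12.14 and 12.22 on the YAP-labelled arrays. All 6 vector arrays lay above the untreated arrays, and the groups given a vector overlapped. CPE differed from untreated cells by 0.34 ± 0.10 on the YAP-labelled arrays (interval 0.13 to 0.56, adjusted p = 0.0628) and by 0.35 ± 0.10 with the control vector (interval 0.13 to 0.57, adjusted p = 0.0931), and neither passed. Both passed without background correction (adjusted p = 0.0267 and 0.0431) and with a variance trend and robust estimates (0.0292 and 0.0485). The YAP-labelled difference also passed when probes had to exceed the floor on all 9 arrays (0.0461). Between the YAP-labelled and control vector arrays CPE differed by -0.0071 ± 0.1048 (interval -0.22 to 0.21, adjusted p = 0.995).

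**Figure D2:**
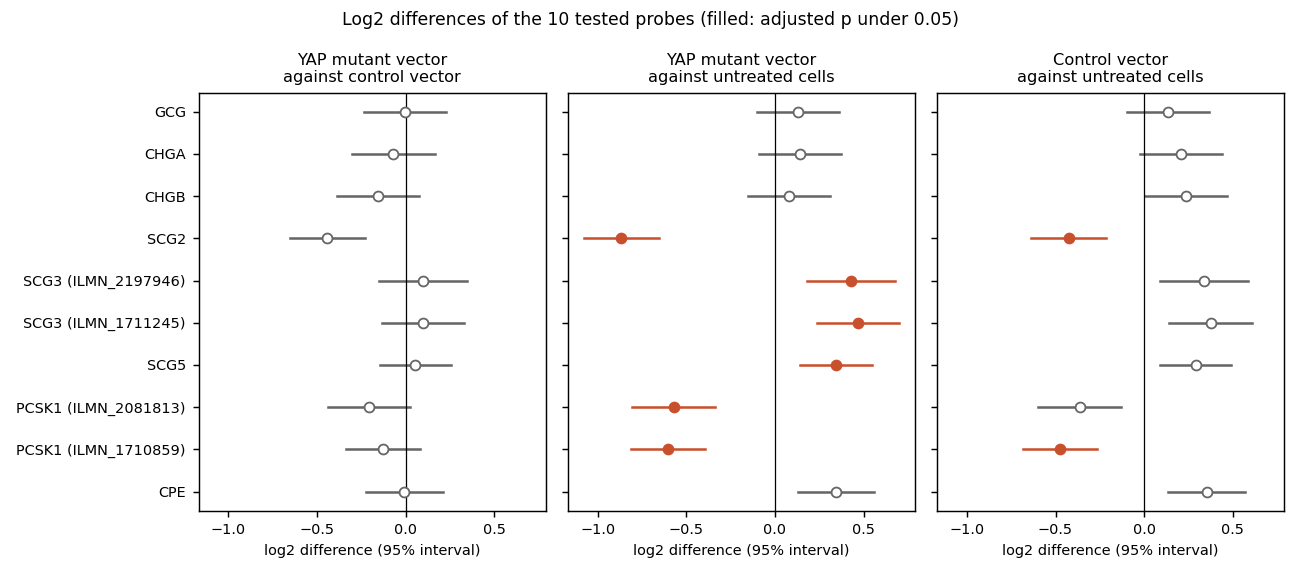
Log2 difference of each of the 10 tested probes in the 3 comparisons, with 95% intervals from the limma model and filled points at an adjusted p under 0.05. No point is filled between the YAP mutant vector and the control vector, 6 are filled against untreated cells for the YAP mutant vector, and 2 for the control vector.

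The 3 comparisons share arrays, so their values are set side by side and not taken as separate evidence. Statements that groups did not overlap describe single probes. The share of all probes with such separation was not computed. Between the YAP-labelled and control vector arrays limma called 0 of 10 probes, and 1 of the 10, SCG2, had an unadjusted p under 0.05. Over all 20218 tested probes 0.277% were called higher and 0.0198% lower, and 1265 had an unadjusted p under 0.05. The median difference of the 10 probes was -0.0382, beside -0.0032 over all probes, and their differences ran from -0.44 to 0.0961. Without background correction, or with a variance trend and robust estimates, 1 of the 10 probes was called. Each time it was SCG2.

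Against untreated cells, the YAP-labelled arrays had 3 of 10 probes called higher and 3 lower, beside 2.96% and 1.5% of all probes. The higher probes belonged to SCG3 and SCG5 and the lower ones to SCG2 and PCSK1. Here 7 of the 10 had an unadjusted limma p under 0.05, beside 3544 of all 20218 probes. The median of the 10 differences was 0.1349, beside -0.0079 over all probes. With 1 array left out the 6 calls became 3 to 6.

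For the control vector against untreated cells, 0 of 10 probes were called higher and 2 lower, beside 1.18% and 0.539% of all probes. The 2 were SCG2 and ILMN_1710859 of PCSK1. An unadjusted limma p under 0.05 was reached by 8 of the 10, beside 2657 of all 20218 probes. The median of the 10 differences was 0.2215, beside -0.0029 over all probes. With 1 array left out the count became 0 to 3.

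Markers of absorptive and goblet cells moved in the same comparisons. Of 11 such genes 8 were tested, and MUC2, FABP1 and CA1 lay above the floor on 0 arrays. Against untreated cells 5 of 8 rose on the YAP-labelled arrays, beside 2.96% of all probes. They were GUCA2A, GUCA2B, FCGBP, TFF3 and SPDEF, with log2 differences of 0.41 to 1.58. With the control vector 4 of 8 rose, beside 1.18% of all probes. Between the YAP-labelled and control vector arrays 1 of 8 rose, beside 0.277% of all probes. It was GUCA2A, the guanylin precursor, which rose by 0.58 ± 0.10 (adjusted p = 0.00863). The summed raw intensity of the list was 25784 to 28446 on the untreated arrays, 29941 to 44868 on the control vector arrays and 31608 to 44115 on the YAP-labelled arrays. Their part in the results for SCG2, SCG3, SCG5 and PCSK1 was not tested. Of 7 fibroblast genes 5 were tested. COL3A1 (log2 signal 10.18 to 10.46) and LUM (10.52 to 11.40) lay above the floor on 9 arrays. COL1A1, COL1A2 and PDGFRA lay above it on 3, 7 and 6. LUM rose by 0.51 on the YAP-labelled arrays against untreated cells (adjusted p = 0.0179), and DCN and PDGFRB lay under the floor throughout. Of 7 blood genes 4 were tested, with PTPRC and CD3E among those under the floor on all arrays. The tested genes CD14, HBA1, HBB and LYZ lay above it on 9 arrays. Among them, HBA1 read 10.24 to 10.93 and LYZ 11.07 to 11.60 in log2 signal. HBA1 fell by 0.50 on the YAP-labelled arrays and CD14 rose by 0.43 with the control vector, both against untreated cells. Of 5 endothelial genes, ESAM alone was tested. The summed raw intensities of the fibroblast, blood and endothelial lists overlapped between all groups, and their part was not tested.

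**Figure D3:**
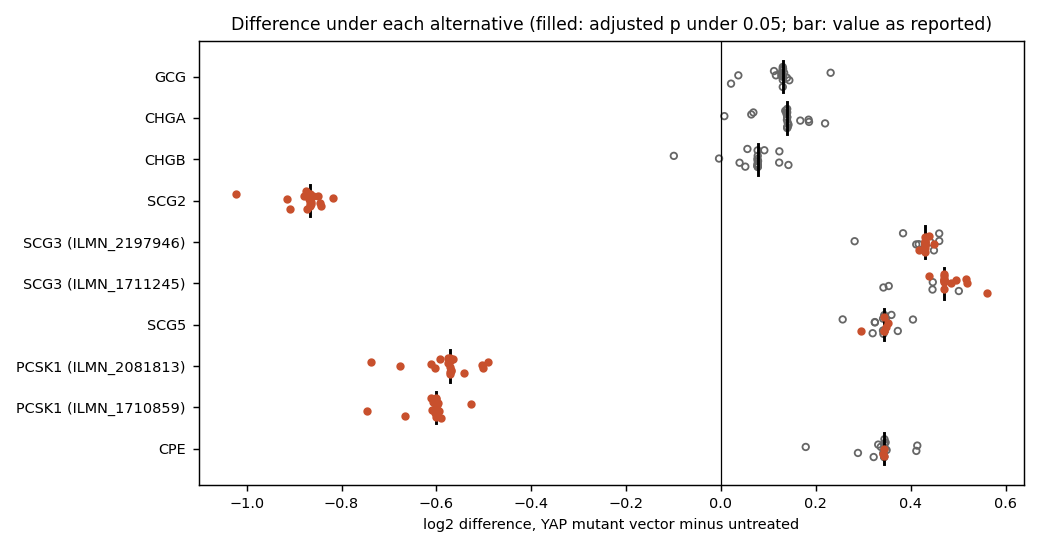
Log2 difference between the arrays labelled YAP mutant vector and untreated cells for the 10 tested probes under each processing alternative, with filled points at an adjusted p under 0.05 and a bar at the value as reported. SCG2 and both PCSK1 probes stay filled and below 0 throughout, SCG3, SCG5 and CPE are above 0 and filled in part, and GCG, CHGA and CHGB are never filled.

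Across the 9 arrays SCG2 and PCSK1 varied together. Pearson's r between SCG2 and the PCSK1 probes was 0.91 at ILMN_2081813 and 0.92 at ILMN_1710859. After the mean of each group was removed, r was 0.50 and 0.36, so much of the likeness lay between the groups. The 2 PCSK1 probes had r = 0.89 with each other, or 0.30 after the group means were removed. The 2 SCG3 probes had r = 0.80, or 0.35 within groups. The r of SCG5 with PCSK1 at ILMN_1710859 was -0.95, or -0.17 within groups. These are descriptions over 9 arrays that share their normalization and groups, with no test.

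The probes most like GCG over the 9 arrays were those of RPL6, a ribosomal protein gene (r = 0.95), HSD17B11, a steroid dehydrogenase gene (r = 0.95), and PIGC, a gene of glycosylphosphatidylinositol anchor synthesis (r = 0.95). Those most like SCG2 were ACOT11, an acyl-CoA thioesterase gene (r = 0.98), SERPINE2, a serine protease inhibitor gene (r = 0.98), and SSBP4, which encodes a single-stranded DNA-binding protein (r = 0.97). They are the highest among tested probes with a gene symbol and are named as descriptions. Unnamed probes, LOC and other provisional names, and probes of the same gene were left out of that search.

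Other genes of hormone production and release were taken as further lists. On the YAP-labelled arrays against untreated cells, 2.96% of all probes were called higher and 1.5% lower. Among 13 other gut hormone genes, NTS (neurotensin) and SST (somatostatin) were above the floor, and neither was called in any comparison. For NTS this held at ILMN_1764690, while ILMN_2189366 lay under the floor on every array. SST read 12.08, 11.84 and 12.01 on the untreated arrays, 12.44, 12.65 and 12.12 on the control vector arrays, and 12.12, 12.42 and 11.88 on the YAP-labelled arrays. The control vector arrays lay above the untreated arrays and overlapped with the YAP-labelled ones, with a difference from untreated cells of 0.43 ± 0.14 (adjusted p = 0.120).

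Of 11 other processing enzymes and inhibitors 8 were tested, and PCSK4, PCSK1N and CPZ lay under the floor. Against untreated cells, 2 of the 8 rose on the YAP-labelled arrays, beside 2.96% of all probes. In either of the other comparisons 0 of 8 passed. PAM, which amidates peptide hormones at the carboxyl end, read 10.35, 10.52 and 10.58 on the untreated arrays and 10.85, 10.97 and 11.20 on the YAP-labelled arrays. PAM read 10.77, 10.81 and 10.81 on the control vector arrays, between those groups. PAM rose by 0.52 ± 0.11 against untreated cells (adjusted p = 0.00492). PCSK6, a convertase of the constitutive secretory pathway, rose by 0.46 ± 0.11 at ILMN_1768577 (adjusted p = 0.0158). Its other 4 tested probes differed by 0.14 to 0.26 and did not pass. The PCSK6 call was lost without untreated replicate 1 (adjusted p = 0.0961) or YAP mutant vector replicate 3 (0.0578). It was also lost with a normexp offset of 16 (0.0585) and with a common median as normalization (0.399). The median of the 8 genes was -0.0264, near that of all probes.

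Of 16 other genes of dense-core granules and exocytosis 11 were tested. On the YAP-labelled arrays 1 of 11 fell against untreated cells, beside 1.5% of all probes. This was STX1A, the syntaxin of the plasma membrane that takes part in granule fusion. STX1A read 10.86, 10.67 and 10.72 on the untreated arrays, 10.55, 10.47 and 10.53 on the control vector arrays, and 10.20, 10.01 and 10.04 on the YAP-labelled arrays. No groups overlapped, and the order was that of SCG2 and PCSK1. STX1A fell by 0.67 ± 0.10 against untreated cells (adjusted p = 0.00021). The STX1A difference between the YAP-labelled and control vector arrays was -0.44 ± 0.10 and missed the threshold (adjusted p = 0.082). Its adjusted p was 0.0254 without background correction and 0.0370 with a variance trend and robust estimates. VGF, PTPRN, SNAP25 and SYP, a granule peptide precursor, a granule membrane protein, a fusion protein and a vesicle membrane protein, were called in none of the 3 comparisons.

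Of 15 transcription factors of cells that express GCG 11 were tested, and PAX6, PAX4 and NEUROG3 were among those under the floor. FOXA2, a forkhead factor of endodermal tissues, was the 1 of 11 that passed, on the YAP-labelled arrays against untreated cells. Over all probes 2.96% were called higher in that comparison. FOXA2 at ILMN_1668052 read 11.35, 11.61 and 11.46 on the untreated arrays, 11.69, 11.73 and 11.69 on the control vector arrays, and 11.92, 11.86 and 12.11 on the YAP-labelled arrays. The groups did not overlap. FOXA2 rose by 0.49 ± 0.11 on the YAP-labelled arrays (adjusted p = 0.00653). The other FOXA2 probes, ILMN_1763712 and ILMN_1678728, lay under the floor on every array. ISL1, CDX2, INSM1 and TCF7L2 had log2 differences from -0.0864 to 0.0411 in the same comparison, and none passed. Over all tested factors that did not pass, differences ran from -0.24 at FOXA1 (adjusted p = 0.223) to 0.10 at NKX2-2 (0.732). In the comparison of the YAP-labelled with the control vector arrays, 0 genes of these 4 lists were called. Over all probes 0.277% were called higher and 0.0198% lower there.

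**Figure D4:**
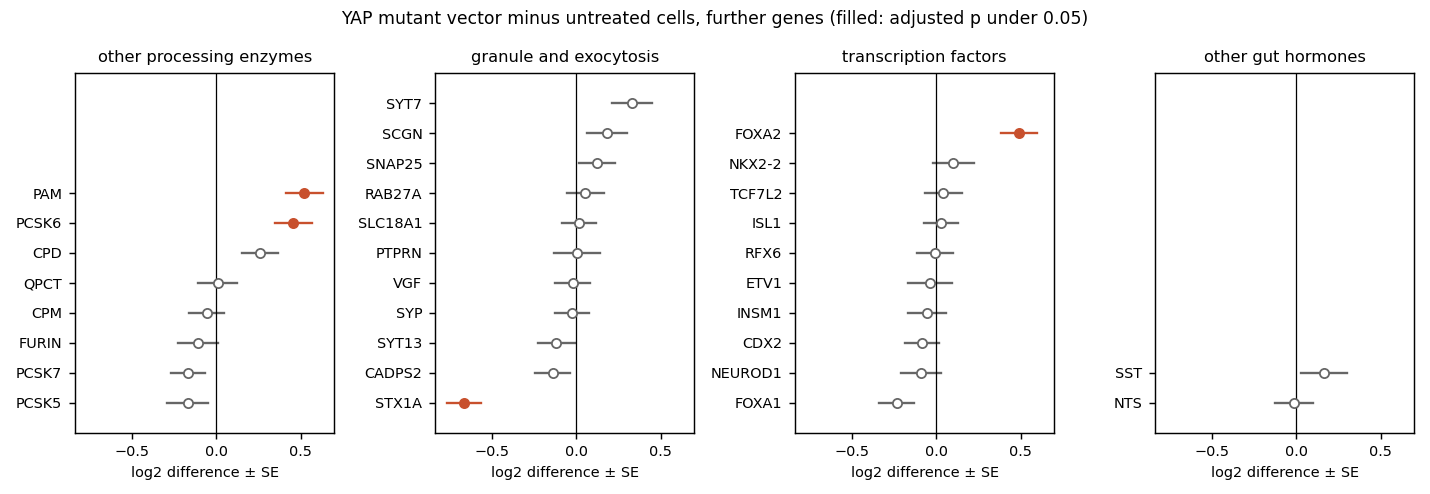
Log2 difference ± SE between the arrays labelled YAP mutant vector and untreated cells for tested genes of 4 further lists, filled at an adjusted p under 0.05. PAM, PCSK6 and FOXA2 rose, STX1A fell by 0.67, and the other genes shown did not pass.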

How the data were processed

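RNA of 9 samples was labelled with biotin and hybridised to Illumina bead arrays, per the labels' protocols. The first deposited table holds the probe intensity of 47230 probes on each array, exported by the authors with BeadStudio per the submitters' processing notes, with no detection p. The second deposited table holds log2 values, which a quantile normalization of the raw intensities matched to within 0.005. No array pair was identical (0 pairs), and 0 columns were left out. Array number limits the precision.

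Intensities were corrected with normexp (offset 50), quantile normalized and log2 transformed in limma 3.58.1 (R 4.3.3); the offset understates differences of dim probes. A probe was tested when its raw log2 signal exceeded the mode of the array plus 1.645 times its lower-side SD on at least 3 of 9 arrays, which kept 20218 probes. Of 463 olfactory receptor probes, 5.18% to 6.48% lay above that floor. A single limma fit of all arrays with group means (6 residual and 16.8 prior degrees of freedom) gave 2-sided moderated tests, standard errors and 95% intervals, with Benjamini-Hochberg adjustment over all kept probes. It was tested on simulated data. For genes of the further lists the brightest kept probe was used, and other tested probes are given for PCSK6. All probes of the 10 genes were named, and of each further list the genes called, up to 4 a comparison, with defining markers of other cell types. The members and lists were chosen with earlier results of these data known. A few genes of the further lists are not reported here. Symbols were updated and promoters taken from RefSeq (GRCh38.p14). The 20 alternatives changed the background correction, normalization, filter, probes, fit or arrays.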

Additional observations from a re-analysis of the deposited data

How the results depend on the processing

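Of the 834 values obtained under the 20 alternatives, 768 kept direction and side of the threshold, 45 lost a call and 10 gained one. The other 11, none of them called, changed sign. The 834 values cover the 10 tested probes of these genes, PCSK6 at ILMN_1768577, and the reported probes of PAM, STX1A and FOXA2. Most belonged to differences not called as reported, which had no call to lose. The 768 is therefore no measure of how stable the calls were: that of SCG5 was lost in 14 of 20 alternatives. The probes called for these genes went from 0 to 1 between the YAP-labelled and control vector arrays without background correction and with a variance trend and robust estimates. In that comparison the probes called among all went from 60 to 25 with an offset of 16, to 12 with a common median and to 12 without both dim arrays (control vector replicate 3 and YAP mutant vector replicate 1), and ranged from 24 to 55 with 1 array left out. It was 40 with only the 2 groups compared. The count for these genes was 0 with any 1 array left out. For the YAP-labelled arrays against untreated cells, 6 became 4 with 1 probe per gene, which drops the other SCG3 and PCSK1 probes, 3 with an offset of 16 and 3 with a common median, and 3 to 6 with 1 array left out. Among all probes 902 became 529 and 215, and 536 to 988. For the control vector against untreated cells, 2 became 1 with 1 probe per gene, 0 with an offset of 16, 0 with a common median and 0 without both dim arrays, and 0 to 3 with 1 array left out. Among all probes 348 became 133, 54 and 168, and 177 to 404. Apart from the probes dropped with 1 probe per gene, the cause of these changes was not tested. With a common median 55.6% of the control vector calls were higher, against 68.7%. It also ended the calls of PAM (adjusted p = 0.343), FOXA2 (0.346) and PCSK6 (0.399) on the YAP-labelled arrays against untreated cells.

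The sign changes lay between the YAP-labelled and control vector arrays for GCG (0.0482 without both dim arrays, -0.079 to 0.062 with 1 array left out), CPE (0.0544, and -0.0664 to 0.0612), CHGA (-0.1409 to 0.006) and SCG3 at ILMN_2197946 (-0.0565 to 0.2218), and against untreated cells for CHGB (-0.0994 with a common median, -0.0041 to 0.1422).

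No clear pairing by replicate number was seen: deviations of equal numbers correlated at -0.202 to 0.1592, and 4 of 9 arrays correlated best with their own number. With 3 arrays a group, a weak pairing could go unseen. With the replicate block 59, 971 and 377 probes were called, among them 0, 5 and 2 probes of these genes. SCG5 was the call lost, on the YAP-labelled arrays against untreated cells (adjusted p = 0.0553). With 3 arrays a group, probes near the floor, such as PYY and PCSK2, cannot be compared.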
